A study of Mus musculus with 18 samples.

Results

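The cohesin loader NIPBL was mapped by ChIP-seq in cells in which catalytically dead Cas9 (dCas9) was either given a guide RNA (block, n = 2 libraries) or left without one (control, n = 2). These 4 libraries were chosen by their sample labels from 18 in the series. The block cells came from a mouse pro-B line transformed with v-Abl. They were RAG2 deficient and JH-del, carried Emu-Bcl2, and expressed both dCas9 and the Sg1-sgRNA. The control cells had the same genotype without Sg1-sgRNA. All groups were treated with 3 uM STI-571, an inhibitor of the Abl kinase that halts the cycling of such lines, for 4 days. Both groups thus lacked the JH segments and RAG2 and carried the Bcl2 transgene, and one transformed line stands in for pro-B cells. The labels did not say whether replicates were separate cultures or clones, so p-values measure only the spread between these samples. The guide sequence was not given in the sources used here, and Sg1 was read as Sγ1, the switch region of the Igh γ1 constant gene. The comparison asks what happens to loader occupancy when dCas9 is placed there, in a study of cohesin loop extrusion at Igh.

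NIPBL forms the cohesin loader with MAU2 and stimulates the ATPase of cohesin, which then reels chromatin into loops until it is stopped, most often by CTCF. In many cell types NIPBL peaks lie at active promoters and enhancers, while the cohesin subunit RAD21 accumulates at CTCF sites. The Igh locus is folded by this process in pro-B cells: from the recombination center around the enhancer Eμ, chromatin is scanned past IGCR1, the CTCF-bound control region between DH and VH segments, while the 3'CBEs, CTCF sites beyond the 3' regulatory region (3'RR), close the other end. Switch regions are long tandem repeats that lie in front of each constant gene and are transcribed before class switching.

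The region with NIPBL peaks at Sγ1 spanned chr12:114572729-114575188 (mm9, 2460 bp). It lay between genes, 3995 to 6454 bp upstream of the annotated Ighg1 record, which is read on the minus strand. Shifted against itself, its sequence matched best at a period of 49 bp, with 76.94% identity, against a median of 27.28% over periods of 10 to 120 bp. AGCT, a preferred target of the deaminase AID in switch regions, reads the same on both strands and occurred 42 times, or 1.71 per 100 bp. In 26735 distal regions with a NIPBL peak (defined below) it occurred 0.569 times per 100 bp, and 754 of them were at least as dense. A stretch covered by peaks in all 4 libraries (chr12:114574100-114574339) and a stretch covered in both block libraries that fell between the peaks of both controls (chr12:114574446-114574659) are shown to compare the repeat inside and between control peaks. Both are on the minus strand, with AGCT in capitals.
Covered in all libraries: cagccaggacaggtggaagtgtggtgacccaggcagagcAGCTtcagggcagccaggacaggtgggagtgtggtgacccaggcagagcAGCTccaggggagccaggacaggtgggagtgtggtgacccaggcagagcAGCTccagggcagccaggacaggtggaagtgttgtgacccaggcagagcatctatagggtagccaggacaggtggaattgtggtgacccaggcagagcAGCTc
Covered in block libraries only: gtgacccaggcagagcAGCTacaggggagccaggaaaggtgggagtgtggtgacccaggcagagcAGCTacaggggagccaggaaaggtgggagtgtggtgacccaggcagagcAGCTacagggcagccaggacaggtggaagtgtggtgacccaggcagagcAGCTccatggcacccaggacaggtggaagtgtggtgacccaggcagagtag
The repeat unit ran through both stretches. AGCT density was 1.68 per 100 bp over the 895 bp of the region covered in all 4 libraries and 1.57 per 100 bp over the 701 bp covered in both block libraries and no control.

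The data were lists of called broad peaks, 1 per library, without read counts, so occupancy was compared as the length of DNA covered by peaks. The lists differed in length: 63052 and 123391 peaks covering 20.33 and 29.8 Mb in block libraries 1 and 2, against 94705 and 91541 peaks covering 22.51 and 21.64 Mb in control libraries 1 and 2 (autosomes and X). One block list was therefore the shortest and the other the longest. The read depth was unknown, and labels name 1 input per group, so a property of an input and the group cannot be told apart. As a check of the cell type, 10 of 12 pro-B marker genes had a peak within 1 kb of the start in all 4 libraries, against 1 of 9 T cell, 1 of 8 myeloid and 2 of 8 erythroid markers. No library had a peak at the starts of Cd3e, Cd3d, Cd8a, Lyz2, Itgam, Mpo, Gata1, Hbb-b1 or Alas2. The summed coverage at pro-B marker starts was 6955 and 8085 bp in block libraries, against 4944 and 4124 bp in controls. At T cell marker starts it was 1298 and 628 bp in block libraries, against 703 and 806 bp in controls. At myeloid markers it was 2562 and 2407 bp in block libraries, against 2626 and 1948 bp in controls, and at erythroid markers 1543 and 1098 bp in block libraries, against 1083 and 1037 bp in controls. The part of cell composition in the results below was not tested.

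Wide NIPBL peaks were more numerous in both block libraries, and the excess lay mainly at promoters. Peaks of 1 kb or wider numbered 3502 and 3959 in block libraries, against 2805 and 2481 in controls. Peaks of 2 kb or wider numbered 298 and 344 in block libraries, against 220 and 193 in controls. Both block lists were above both controls although one of them was the shortest list. At promoters (peaks within 1 kb of an annotated gene start) those of 1 kb or wider numbered 2518 and 2584 in block libraries, against 1896 and 1429 in controls. Between 1 and 5 kb from a start they were few but also did not overlap, at 172 and 176 in block libraries, against 103 and 69 in controls. At distal sites (over 5 kb from any annotated gene start) they numbered 812 and 1199 in block libraries, against 806 and 983 in controls. There the groups overlapped. Each gene counted with its annotated gene start, and starts of its other transcripts were not used. Cut to the same covered length of 20.33 Mb, keeping the peaks of lowest q, the lists had a mean peak width of 322.4 and 343.5 bp in block libraries, against 260.5 and 248.1 bp in controls. The controls kept more peaks at that length. With equal numbers of peaks (63052) the gap was smaller, at 322.4 and 334.1 bp in block libraries, against 291.4 and 281.3 bp in controls.

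**Figure D1:**
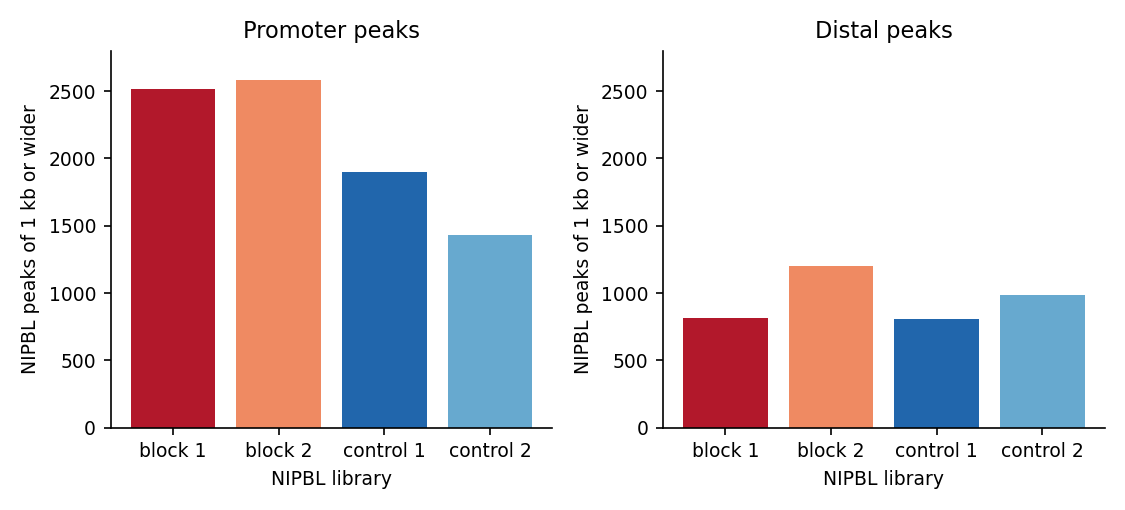
Number of NIPBL peaks of 1 kb or wider in each library (x axis, red shades block and blue shades control). The left panel shows peaks within 1 kb of a gene start, and the right panel those over 5 kb from any annotated gene start. At promoters both block libraries (2518 and 2584) stand above both controls (1896 and 1429), while at distal sites block library 1 (812) lies below control 2 (983).

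To follow single sites, overlapping peaks of the 4 lists were merged into 238985 regions. A region was called wider when the lower block library covered more bp of it than the higher control, additional when both block libraries and no control had a peak there, and narrower or missing in the opposite cases. Of all regions 7.23% were wider or additional and 3.11% narrower or missing. Of 20874 promoter regions 4623 were wider and 552 additional (together 24.8%), while 449 were narrower and 237 missing (3.29%). To allow for list length, the same was asked of lists cut to equal numbers of peaks (63052) and to equal covered length. Both cuts dropped whole peaks, and block list 1 lost none. Every kept peak had its called width, so the cuts do not allow for differences in called width. In all 3 list settings 4663 promoter regions (22.3%) stayed wider or additional and 464 (2.22%) stayed narrower or missing. Between 1 and 5 kb from a start, 8.9% of 22892 regions were wider or additional as deposited and 2.28% narrower or missing, with 1386 (6.05%) and 256 (1.12%) in all 3 settings. Of 195219 distal regions, 5.16% were wider or additional as deposited and 3.19% narrower or missing, with 6464 (3.31%) and 3451 (1.77%) in all 3 settings. In all 3 settings the number wider or additional over the number narrower or missing was 10.05 at promoters and 1.87 at distal sites.

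The promoter difference was mostly one of width at sites that every library occupied. At the 9358 promoter regions with a peak in all 4 libraries, the median covered length was 751 and 759 bp in block libraries, against 674 and 593 bp in controls. The controls differed from each other by about as much as block library 1 differed from control 1. Of these regions 45.26% were wider and 3.53% narrower in both block libraries. At the 12626 distal regions with a peak in all 4, the medians were 332.5 and 409 bp in block libraries, against 337 in each control, with 25.15% wider and 13.59% narrower. The caller's median fold over background (the authors' values, not on a common scale between lists) at those promoter regions was 7.06 and 5.26 in block libraries, against 4.91 and 4.28 in controls. Most of the promoter differences were small: of 5175 promoter regions wider or additional as deposited, 1166 remained when the lower block library had to exceed the higher control by 1.5 times, and 334 of 686 narrower or missing ones did under the same margin. Of distal regions 6612 of 10074 wider or additional ones and 4419 of 6228 narrower or missing ones met it.

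The share of promoter regions wider or additional in block libraries was larger among those with more bp covered by NIPBL peaks. In regions with a mean of 100 to 200 covered bp over the 4 libraries, 15.98% of 1690 promoter regions were wider or additional in all 3 list settings and 4.44% narrower or missing. From 400 to 800 bp the shares were 44.89% and 3.23% of 4270, and at 1600 bp and above 55.73% and 0.899% of 445. Distal regions showed 14.35% and 5.68% of 13787 in the lowest range and 31.18% and 15.29% of 170 in the highest. The share going down in block libraries thus grew with width at distal sites and shrank with width at promoters. The bins used the same 4 libraries that define wider and narrower. The cuts to equal length also dropped narrow peaks, and the median width in block list 2 went from 151 bp to 186 and 191 bp. Narrow regions could therefore fail the 3 list settings more often, and the part of this in the trends was not tested. With promoter regions ordered by GC content and cut into 4 equal bins, the share wider or additional was 43.03% in the most AT-rich bin and 34.49% in the most GC-rich, against 2.44% and 4.62% narrower or missing.

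**Figure D2:**
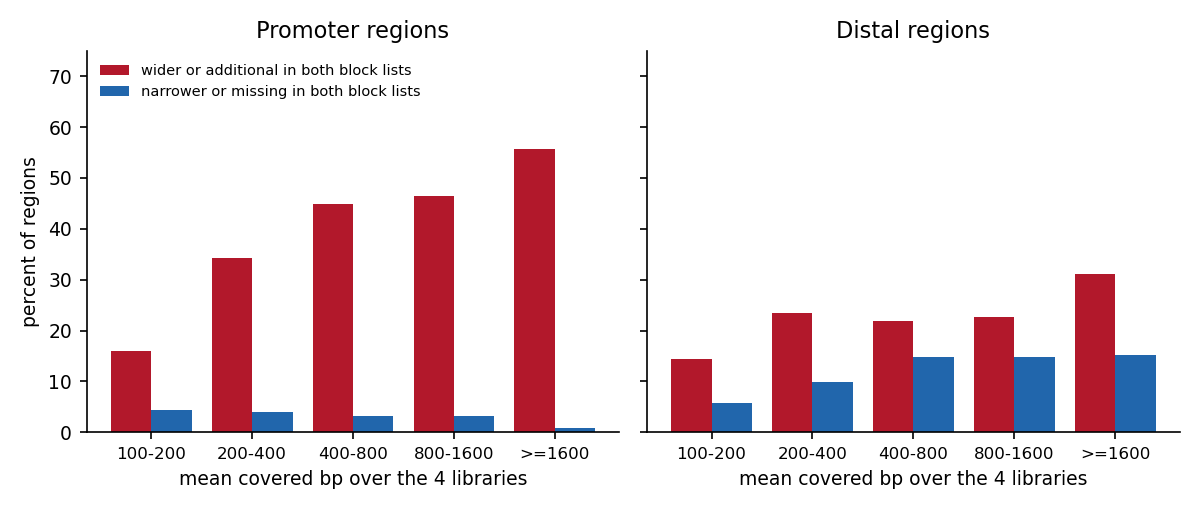
Percent of regions that were wider or additional (red, left bar) or narrower or missing (blue, right bar) in both block libraries in all 3 list settings, by mean covered bp over the 4 libraries (x axis), for promoter (left panel) and distal regions (right panel). At promoters the red bars go up with width to 55.73% and the blue bars stay under 5%; at distal sites both are higher in wide than in the narrowest regions.

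No single region or gene start passed a test across all features. With limma on log2(covered bp + 100), 0 of the 42036 regions covered over at least 100 bp on average (0.0%) had a Benjamini-Hochberg adjusted p under 0.05, while 3248 (7.73%) were higher and 1279 (3.04%) lower in block libraries at an unadjusted p under 0.05. In windows of 1 kb to each side of gene starts, 0 of 12905 tested passed (0.0%), with 1176 (9.11%) higher and 131 (1.02%) lower at unadjusted p under 0.05. The number of higher starts was 738 without block 1, 578 without block 2 and 2027 without control 1, and the number of lower starts was 250 without block 2 and 236 without control 2. Lower regions numbered 2038 without block 2. After quantile normalization, which gives all libraries the same distribution, these numbers were 498 and 378 for starts and 2315 and 2007 for regions. The shift shared by all starts was a median log2 difference of 0.20 over all starts as deposited and -0.02 after quantile normalization. By class, the median log2 difference as deposited was 0.21 at promoters, 0.41 at regions 1 to 5 kb from a start and 0.13 at distal regions. After quantile normalization across all regions it was 0.06 at promoters, 0.20 at regions 1 to 5 kb from a start and -0.06 at distal regions. When only peaks with −log10 q of at least 3 were kept, limma called 368 gene starts higher and 8 lower at adjusted p under 0.05, and 833 regions higher and 128 lower. This cut did not match the lists in length. They covered 12.66 and 9.74 Mb in block libraries, against 8.40 and 8.29 Mb in controls.

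Window by window, 5399 of the 12905 gene starts (41.8%) were covered more in both block libraries than in either control and 582 (4.51%) less, with 4963 (38.5%) and 432 (3.35%) in all 3 list settings. The median start was covered over 698 and 715 bp in block libraries, against 627 and 539 bp in controls. Protein coding genes are named here by the largest gaps between groups. At the first starts in this ranking, called NIPBL peaks nearly filled the window in block libraries. At the divergent start of Hras1, a Ras GTPase (chr7:148379904, minus strand), and Lrrc56, the window of 2001 bp around Hras1 was covered over 1798 and 2001 bp in block libraries, against 953 and 719 bp in controls. Adssl1, a muscle adenylosuccinate synthase (chr12:113858258, plus strand), had 1853 and 1911 bp in block libraries, against 987 and 1076 bp in controls. At both starts each block library covered more of the window than either control. The highest fold was taken over all peaks of the merged regions that touched the window, so such a peak can lie outside it. This highest fold overlapped between groups at both starts. It was 6.41 and 3.95 in block libraries at Hras1, against 3.96 and 5.59 in controls. At Adssl1 it was 5.69 and 4.71 in block libraries, against 6.08 and 5.04 in controls.

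The groups did not overlap at the starts that followed in this ranking, of which 4 are described here. The divergent start of Eif3k, a subunit of translation initiation factor eIF3, and Map4k1, a kinase of blood cells that damps antigen receptor signalling, had 990 and 1070 bp around Eif3k in block libraries, against 255 and 197 bp in controls (limma adjusted p 0.183). Prr11, which lies divergent to the kinetochore gene Fam33a, had 787 and 811 bp in block libraries, against 0 and 115 bp in controls. Osm, which encodes the cytokine oncostatin M and is induced through STAT5, had 1475 and 1749 bp in block libraries, against 395 and 865 bp in controls. The controls of Osm lay far apart, and its limma adjusted p was 0.489. Gtpbp3, an enzyme of mitochondrial tRNA modification, had 1036 and 1441 bp in block libraries, against 434 and 383 bp in controls. The highest fold was above both controls in both block libraries at Eif3k (8.22 and 6.17, against 5.73 and 4.66) and Prr11 (5.26 and 3.54, against 2.92 and 3.23). It overlapped between groups at Osm (4.71 and 3.97, against 3.76 and 4.83) and Gtpbp3 (8.75 and 5.61, against 5.87 and 3.63).

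The other named starts with wider coverage were Gfra2 (a receptor for neurturin), Wdr81, C230052I12Rik with Ccdc123, Orai2-ps, BC019943 and Fbxl6 with Gpr172b. Their lowest block values were 844 to 1658 bp, against highest control values of 245 to 997 bp. Over all 17 genes at the 12 starts, limma log2 differences were 0.80 to 2.62 and adjusted p-values 0.183 to 0.489.

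Fewer starts went the other way. The start shared by Rasal2, a Ras GTPase-activating protein, and 2810025M15Rik was covered over 749 and 594 bp in block libraries, against 1397 and 1422 bp in controls. The highest fold in the regions touching its window went the opposite way, at 5.89 and 4.65 in block libraries, against 4.29 and 4.01 in controls. Dolpp1, a dolichyl pyrophosphate phosphatase, had 647 and 660 bp in block libraries, against 1098 and 1055 bp in controls. Acvr1c, an activin type receptor kinase, had 85 and 155 bp in block libraries, against 587 and 506 bp in controls. At Dolpp1 and Acvr1c the highest fold overlapped between groups. At Cmtm1 no block library had a peak, against 335 and 326 bp in controls. It had the smallest adjusted p of all starts named, 0.162. Arl4c, Wbscr17, 9430020K01Rik and Gm11008 completed the list, with highest block values of 120 to 544 bp, against lowest control values of 440 to 907 bp.

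**Figure D3:**
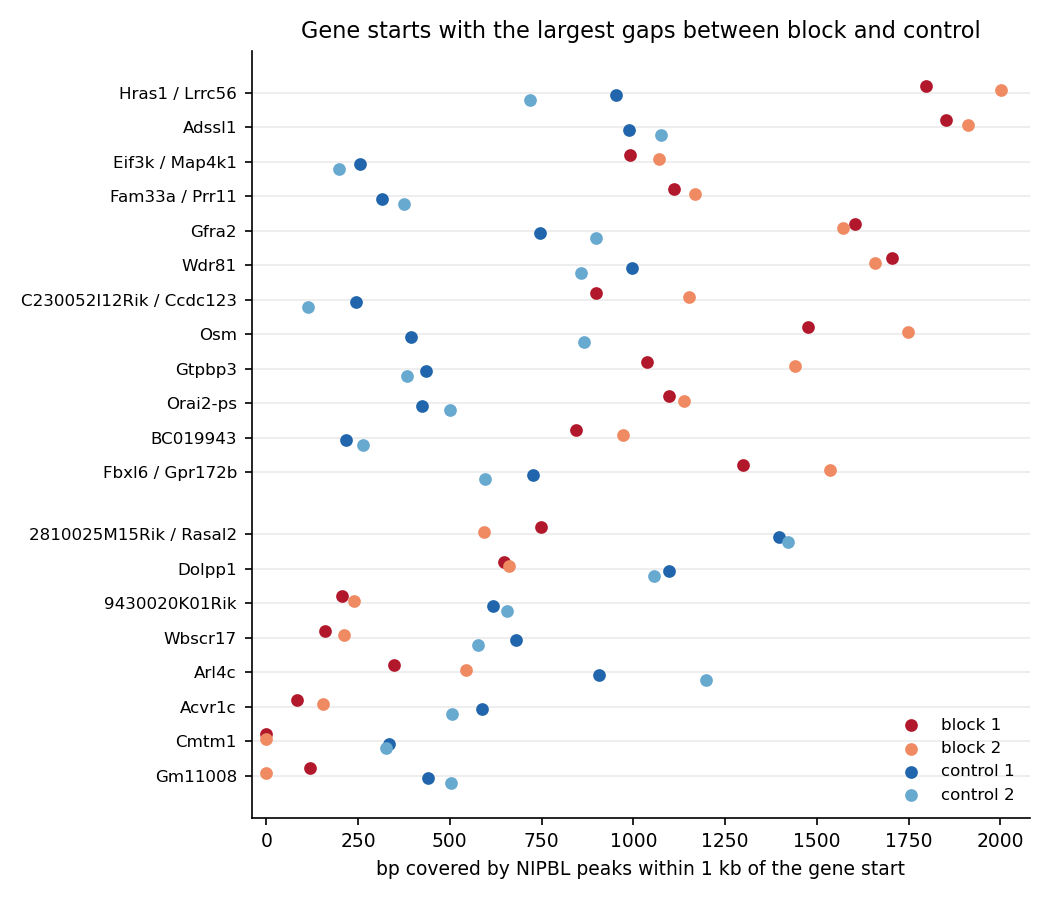
Covered bp (x axis) within 1 kb of the start of each named gene or gene pair (rows; the first of a pair is plotted), 1 point per library, block in red shades and control in blue shades. In the upper 12 rows both block points lie right of both control points, and in the lower 8 rows both lie left of them, as the choice of these genes requires.

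The B lineage genes had the largest shift among the gene lists that had more than 3 tested members. Of 22 tested early B lineage starts 16 were covered more in both block libraries in all 3 list settings and 1 less, against 38.5% and 3.35% of all starts; the median log2 difference was 0.51, against 0.20 over all starts, and none was called by limma. Pro-B marker starts, which share genes with this list, were also covered more in sum in both block libraries (above). After quantile normalization the medians were 0.27 for the list and -0.02 for all starts. Cd79a, the signalling subunit of the B cell receptor, had 1117 and 1328 bp in block libraries, against 672 and 479 bp in controls (log2 difference 0.98, SE 0.22, adjusted p 0.403). Its adaptor Blnk had 707 and 747 bp in block libraries, against 339 and 322 bp in controls (log2 difference 0.94, SE 0.12, adjusted p 0.287). The transcription factor gene Runx1 had 790 and 669 bp in block libraries, against 337 and 0 bp in controls, and Bcl11a had 1575 and 1539 bp in block libraries, against 1206 and 1128 bp in controls. In all 4 genes both block libraries were above both controls. The only start that was covered less, Vpreb1, a gene of the surrogate light chain, had 633 and 655 bp in block libraries, against 656 and 672 bp in controls, a gap of 1 bp. Among the 16 covered more, the smallest gaps were 1 bp at Pax5, 4 bp at Cd79b and 17 bp at Foxo1.

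Genes of the cohesin machinery stayed near the shift of all starts. Of all starts tested, 38.5% were covered more in all 3 list settings and 3.35% less. Of 16 tested cohesin, loader and CTCF starts 5 were covered more in all 3 list settings (Mau2, Espl1, Smc1a, Pttg1 and Rad21) and none less, with a median log2 difference of 0.15 and of -0.01 after quantile normalization. Mau2, the partner of NIPBL in the loader, had 1389 and 1241 bp in block libraries, against 782 and 504 bp in controls. Nipbl itself was covered over nearly the whole window, 1804 and 1981 bp in block libraries and 1830 and 1793 bp in controls, and the groups overlapped. Espl1, which encodes separase, had 499 and 484 bp in block libraries, against 319 and 369 bp in controls. Among the 15 tested v-Abl and STAT5 targets 6 were covered more in all 3 settings and none less (median log2 0.22, and 0.02 after quantile normalization). Besides Osm these included Ccnd2, the cyclin D2 gene, with 1274 and 1273 bp in block libraries, against 760 and 813 bp in controls. Socs3, a feedback inhibitor of cytokine signalling, had 1119 and 1066 bp in block libraries, against 821 and 850 bp in controls. Myc had 1305 and 1240 bp in block libraries, against 966 and 1111 bp in controls.

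The remaining lists with more than 3 tested starts had median log2 differences of 0.08 to 0.27, against 0.20 over all starts. The counts below stand beside 38.5% of all starts covered more in all 3 settings and 3.35% less. In lists this short, none covered less is near that share. Of 29 cytosolic ribosomal protein starts 13 were covered more in all 3 settings and none less (median log2 0.19); Rpl8 had 1010 and 1046 bp in block libraries, against 757 and 641 bp in controls, and Rps12 had 1032 and 833 bp in block libraries, against 663 and 642 bp in controls. Of 12 housekeeping starts 6 were covered more and none less (0.21), Sdha, a subunit of succinate dehydrogenase, with 859 and 710 bp in block libraries, against 468 and 459 bp in controls, and Hprt with 807 and 822 bp in block libraries, against 716 and 509 bp in controls. Of 12 class switch and end joining starts 8 were covered more and none less (0.27); Ung, the uracil glycosylase that acts after AID, had 1021 and 1123 bp in block libraries, against 705 and 766 bp in controls, and Parp1 had 849 and 920 bp in block libraries, against 614 and 699 bp in controls. Of 19 G1 arrest and FOXO starts 9 were covered more (0.16), E2f1 with 1384 and 1305 bp in block libraries, against 1051 and 630 bp in controls, and Ccne1 with 1165 and 1432 bp in block libraries, against 1103 and 531 bp in controls; Ccna2 was covered less, with 764 and 857 bp in block libraries, against 1009 and 864 bp in controls. Of 17 mediator and elongation starts 6 were covered more and none less (0.08); Med13 had 1384 and 1537 bp in block libraries, against 999 and 1023 bp in controls, and Supt6h had 944 and 964 bp in block libraries, against 811 and 603 bp in controls. After quantile normalization the medians were -0.04 for the ribosomal and -0.10 for the mediator list, against 0.04 for the G1 arrest, 0.08 for the class switch and 0.00 for the housekeeping list. The T cell, myeloid and erythroid lists had 2, 3 and 2 tested starts, with median log2 differences of 0.45, 0.17 and 0.38 (-0.03, 0.11 and 0.04 after quantile normalization). Of these starts Lck (T cell), Fcgr3 (myeloid) and Tfrc and Klf1 (erythroid) were covered more in all 3 settings. No member of any list was called by limma (0.0% of starts).

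At distal sites NIPBL coverage went in both directions, and the wider and the narrower sites differed in cohesin. RAD21 was mapped in the same block and control cells in separate libraries that the choice of regions did not use. Among regions covered over at least 100 bp on average, 41.15% of the 4948 distal regions wider or additional in all 3 list settings had a RAD21 peak in both RAD21 block libraries and 33.16% in both RAD21 controls. Of the 2327 distal regions narrower or missing, 6.19% had RAD21 in both RAD21 block libraries and 5.63% in both RAD21 controls. The remaining 19460 distal regions lay between, at 16.43% and 12.90%. The contrast was therefore present with RAD21 from control cells as well.

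The same groups differed in position and base composition and by less in length. The distal regions wider or additional were 51.78% intergenic, against 70.31% of those narrower or missing and 61.38% of the rest. The start of another transcript lay within 1 kb of 8.33%, 2.06% and 4.54% of them, in the same order. CpG dinucleotides occurred at a median of 2.74 per 100 bp in regions wider or additional, 4.41 in those narrower or missing and 3.36 in the rest, and the median GC content was 56.26%, 57.50% and 56.11%. Median region length was 451.5, 548 and 435 bp. At promoters the difference in RAD21 was smaller: 35.86% of regions wider or additional had RAD21 in both RAD21 block libraries, against 24.42% of those narrower or missing and 27.79% of the rest. By chromosome, the share of distal regions wider or additional was highest on chromosome 11 (25.59% of 1309) and chromosome 19 (23.12% of 558). Chromosome X alone had more distal regions narrower or missing (12.89% of 1629) than wider or additional (9.76%). Its share of all covered bp was 3.33% and 3.93% in block libraries, against 4.28% and 5.42% in controls.

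The distal sites with the largest gaps, ranked as the gene starts were, included Sγ1 at rank 4. The first was an intergenic region at chr12:20237205-20240237, nearest to Gm10479 at 181562 bp, with 2428 and 2823 bp covered in block libraries, against 1021 and 880 bp in controls. The second, at chr11:117178150-117180721 in an intron 53399 bp from the start of Gm16045, had 2359 and 2037 bp in block libraries, against 1060 and 725 bp in controls. The third, at chr1:182901976-182903537 in an intron near 2210411M09Rik, had 1309 and 1251 bp in block libraries, against 166 and 301 bp in controls. The regions at chr2:32678158-32680154 (near Gm13524) and chr7:139904670-139906584 (near Gm15582) had 1492 to 1746 bp in block libraries, against 381 to 672 bp in controls. Outside Sγ1 these sites held RAD21 in both RAD21 block libraries and in at least 1 RAD21 control.

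The 4 distal sites with the largest gaps downwards held no RAD21 peak in any of the 4 RAD21 libraries. The region at chr6:114565836-114567538, 25611 bp from the start of Atg7, had 620 and 578 bp in block libraries, against 1685 and 1667 bp in controls. The region at chrX:42824012-42825694 had 196 and 279 bp in block libraries, against 1195 and 1182 bp in controls. The remaining 2, nearest to Zfp516 and to Gm7889, had 51 to 449 bp in block libraries, against 911 to 1180 bp in controls. All 4 were intergenic. The direction at the Atg7 site depended on the threshold: with peaks of −log10 q of at least 2 its log2 difference was 1.42, since neither control kept a peak there.

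At Sγ1 the block libraries had a single wide peak where the controls had separate short ones. NIPBL peaks covered 2227 and 2294 bp of the region in block libraries (2260.5 ± 47.4 bp, SD), against 953 and 1302 bp in controls (1127.5 ± 246.8 bp), or 90.53% and 93.25% of the region in block libraries, against 38.74% and 52.93% in controls. Block libraries had 1 peak each in the region, while control 1 had peaks of 203, 417 and 333 bp and control 2 of 973 and 329 bp. The fold of the strongest peak was 11.2 and 8.11 in block libraries, against 4.26 and 3.39 in controls. The covered bp did not overlap between groups and were the same in lists cut to equal length, which kept these peaks whole.

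Against other sites the gap at Sγ1 ranked higher in bp than in ratio. Its gap of 925 bp ranked 4 of 6464 distal regions wider or additional in all 3 list settings and 11 of 12513 regions of any class. Its log2 difference of 0.96 (SE 0.28) ranked 6739 of 42036 regions tested, and the limma adjusted p was 0.390. With only peaks of −log10 q of at least 3, 1 control kept a peak there and the log2 difference was 3.76. Ranked by fold, the strongest Sγ1 peak lay in the top 1.68% and 0.981% in block libraries, against 10.05% and 27.43% in controls. RAD21 peaks covered 2397 and 2362 bp of the same region in RAD21 block libraries and 0 bp in both RAD21 controls.

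**Figure D4:**
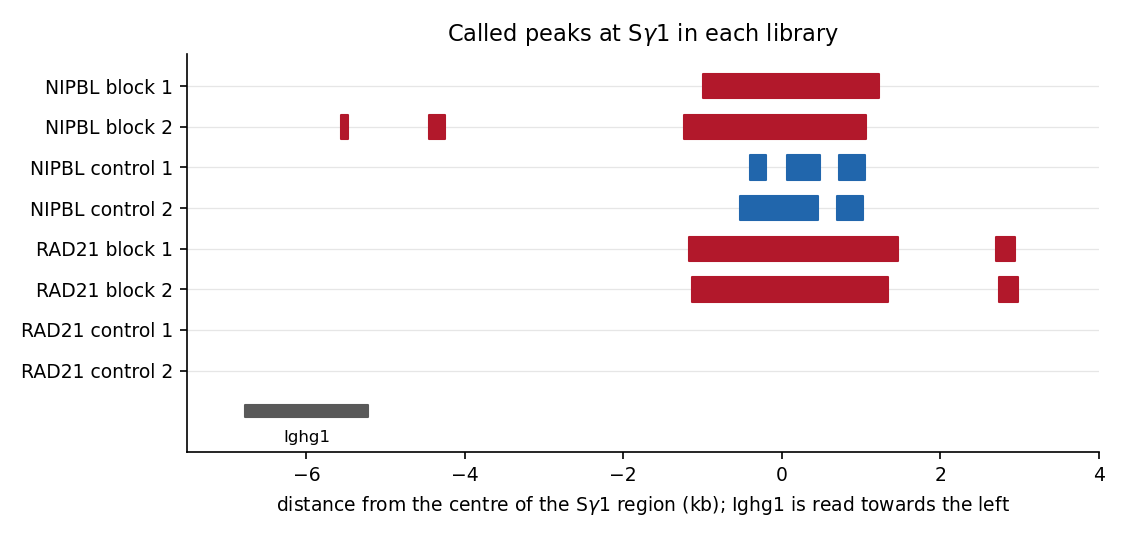
Called peaks around Sγ1 in each NIPBL and RAD21 library (rows), drawn to scale by distance from the centre of the Sγ1 region (x axis, kb; red block, blue control), with the Ighg1 gene record as a grey bar. NIPBL has 1 peak of 2227 or 2294 bp over Sγ1 in block libraries and 3 or 2 shorter ones in controls, and RAD21 has a peak there in block libraries alone.

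Over the Igh locus, coverage of 17 segments was compared next. The segment ends are approximate and follow the order of genes along it. Of these, 8 were covered more in both block libraries than in either control, 1 less, and 8 overlapped. In lists of equal covered length 5 segments were covered more and 1 less: Cγ1, the segment between Cγ3 and Cδ, the DH segments, IGCR1 and the middle and distal VH segments were covered more and Cμ-Sμ less. These 5 were also covered more in lists of equal numbers of peaks. An exact permutation test (two-sided) cannot go below p = 0.3333 with 2 libraries in each group. Every segment without overlap had this p, or 0.630 after Benjamini-Hochberg adjustment over the segments.

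Cγ1, which holds Sγ1, was covered over 7.26% and 8.48% in block libraries, against 3.11% and 4.24% in controls. IGCR1 was covered over 4.50% and 3.10% in block libraries, against 1.55% and 0% in controls, in a segment where NIPBL peaks were short. With lists of equal covered length IGCR1 kept 4.50% and 0.694% in block libraries, against 0% in both controls. With peaks of −log10 q of at least 2 or 3, IGCR1 held no peak in any library, and with its ends moved in by 3 kb block library 1 had none, so the groups overlapped in these settings. The 3'RR, an enhancer cluster, was covered over 6.19% and 4.50% in block libraries, against 2.98% and 2.81% in controls. This difference depended on list length: with lists of equal covered length the values were 6.19% and 1.25% in block libraries, against 2.33% and 2.81% in controls. The middle and distal VH segments were covered over 0.759% and 1.03% in block libraries, against 0.587% and 0.579% in controls. The DH segments had 0.527% and 0.389% in block libraries, against 0.0977% and 0% in controls, and the groups overlapped in the same 3 settings as at IGCR1. The segment between Cγ3 and Cδ had 0.797% and 1.20% in block libraries, against 0.471% and 0% in controls, and with lists of equal covered length the lower block value, 0.476%, was just above the higher control. At −log10 q of at least 3 no library had a peak there.

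Cμ-Sμ, the switch region and constant gene nearest to Eμ, was the segment covered less. Peaks covered 16.38% and 18.63% of it in block libraries, against 24.57% and 37.90% in controls. The region that carried this, chr12:114661961-114663415, had 173 and 752 bp in block libraries, against 1038 and 1384 bp in controls. Its highest fold overlapped between groups, at 4.15 and 3.21 in block libraries, against 3.15 and 3.42 in controls. No peak with −log10 q of at least 3 remained in Cμ-Sμ in either control, so the difference lay in peaks under that threshold. At −log10 q of at least 2 the groups overlapped, with 14.04% and 0% in block libraries, against 1.18% and 32.66% in controls. Of the other segments without a shift in all settings, Cε had 3.08% and 0.912% in block libraries, against 0.707% and 0% in controls, and Cδ had 1.94% and 2.64% in block libraries, against 0% and 0.562% in controls. The 3'CBEs had 6.58% and 3.47% in block libraries, against 5.24% and 3.50% in controls. Cγ2b had 7.54% and 12.72% in block libraries, against 10.46% and 4.26% in controls. Cγ2c had 0.969% and 3.53% in block libraries, against 2.06% and 0.484% in controls, and the proximal VH segments 0.117% and 0.282% in block libraries, against 0.0855% and 0.195% in controls. Cα had peaks in block library 2 and control 1, Cγ3 in block library 1 alone, and the gap between DH and VH had none in any library.

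**Figure D5:**
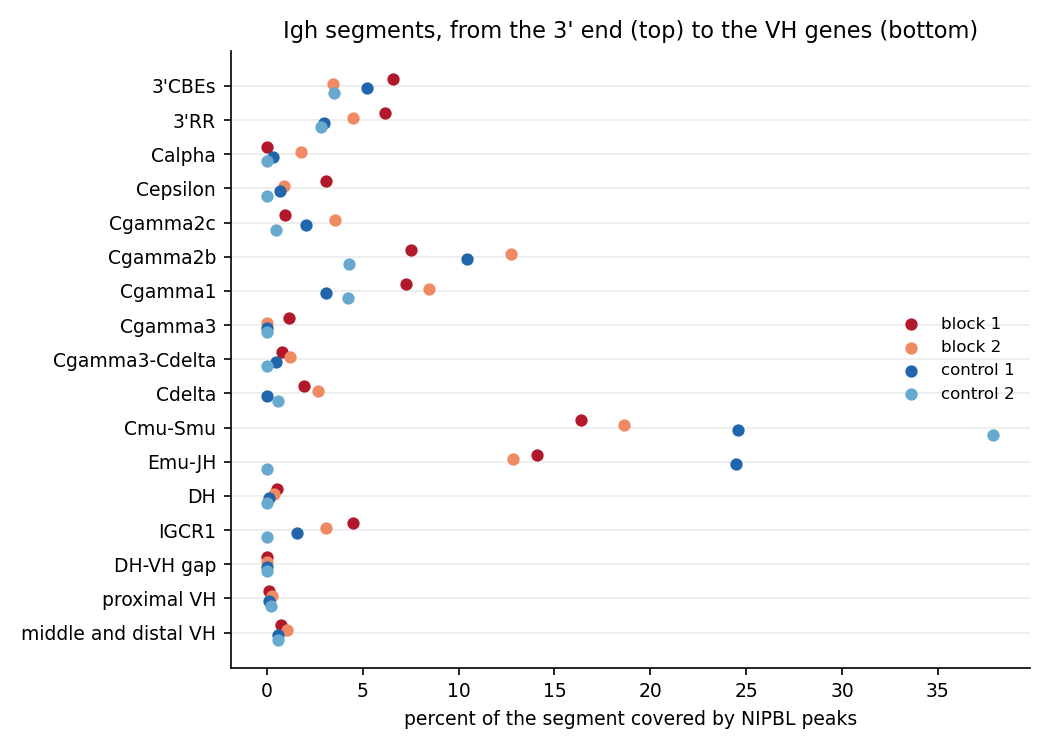
Percent of each Igh segment covered by NIPBL peaks (x axis), 1 point per library, with block in red shades and control in blue shades, in the order of the locus from the 3' end (top) to the VH genes (bottom). Both block points lie right of both controls at Cgamma1 (7.26% and 8.48% in block libraries, against 3.11% and 4.24% in controls) and left of them at Cmu-Smu (16.38% and 18.63% in block libraries, against 24.57% and 37.90% in controls).

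Of 305 regions within Igh 20 were additional and 22 wider in block libraries (together 13.77%), while 5 were missing and 1 narrower (1.97%), against 5.16% and 3.19% of all distal regions. Of the 20 additional regions 8 stayed so or stayed wider in all 3 list settings, 9 held RAD21 peaks in all 4 RAD21 libraries and 5 in none. The widest of those outside the VH segments that stayed so was chr12:114665645-114665891 in the Eμ-JH segment, with 228 and 243 bp in block libraries and no peak in either control. RAD21 covered its whole length in all 4 RAD21 libraries. Its sequence is shown because it reads as the core of the Eμ enhancer, on the minus strand with matches of the E-box CAGGTG on either strand in capitals.
Additional region in Eμ-JH: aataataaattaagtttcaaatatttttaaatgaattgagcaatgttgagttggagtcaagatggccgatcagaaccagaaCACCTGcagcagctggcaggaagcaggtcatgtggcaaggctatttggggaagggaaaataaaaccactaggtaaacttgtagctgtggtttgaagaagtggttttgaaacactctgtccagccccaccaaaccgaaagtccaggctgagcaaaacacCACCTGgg
CAGGTG had 2 matches here, both as its reverse complement CACCTG, and the octamer ATGCAAAT had none on either strand in this window. Of 26735 distal regions 31.85% held CAGGTG and 1.25% the octamer in a central window of the same length. The cells carry an Emu-Bcl2 transgene, so reads from a transgenic copy of this sequence and from Igh cannot be told apart. The segment as a whole overlapped between groups, at 14.11% and 12.86% in block libraries, against 24.46% and 0% in controls, since control 1 had a peak elsewhere in it.

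The other additional regions outside VH were shorter or rested on list length. In the 3'CBEs chr12:114456231-114456364 was covered fully in block library 1, over 51 bp in block library 2 and in neither control, and RAD21 covered it fully in all 4 RAD21 libraries. In Cγ2c chr12:114532916-114533157 had 204 and 181 bp in block libraries and none in controls, with no RAD21 peak. Also in Cγ2c, chr12:114536209-114536591 was missing from block libraries, with 383 and 51 bp in controls. The additional regions chr12:114479263-114479732 in the 3'RR (303 and 342 bp in block libraries) and chr12:114660361-114660772 in Cμ-Sμ (296 and 156 bp) did not stay so in all list settings.

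The VH segments held 15 of the 20 additional regions and 228 of the 305 regions within Igh. In the middle and distal VH segments 14 of 210 regions were additional, 17 wider and 3 missing, and 18 (8.57%) were wider or additional in all 3 list settings and 2 (0.952%) narrower or missing, against 3.31% and 1.77% of all distal regions. The widest additional region, chr12:116843277-116843821, had 404 and 522 bp in block libraries and held RAD21 over 470 to 517 bp in all 4 RAD21 libraries. The other additional VH regions that stayed so in all 3 settings were chr12:116662918-116663123 (167 and 139 bp in block libraries), chr12:116699082-116699346 (132 and 262 bp), chr12:116805717-116805941 (51 and 225 bp) and chr12:117150447-117150683 (208 and 177 bp). Of the missing ones, chr12:115473975-115474982 had 51 and 1008 bp in controls and chr12:116088042-116088194 had 153 and 51 bp, and neither held RAD21. The third, chr12:117072069-117072243, had 51 and 156 bp in controls, held RAD21 over 68 to 175 bp in all 4 RAD21 libraries and did not stay missing in all list settings. In the proximal VH segments 1 of 18 regions was additional and 1 missing, and neither stayed so in all list settings.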

How the data were processed

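The data were broadPeak lists of 4 NIPBL and 4 RAD21 dCas9 libraries, 1 list per library and not pooled. The submitters' processing notes name Bowtie2 2.2.8, SAMtools 1.8, MACS2 and the build mm9, and their settings are not given in the sources used here; per the peak names in the files, each list was called against a control library. The authors' lists give the fold of each peak, a ratio over background, and its −log10 p and −log10 q, all per the deposited columns. The integer score was not used. Chromosome ends were checked against NCBIM37, and genes came from GENCODE vM1 (26183 starts of protein coding, lincRNA and processed transcript genes). Peaks on chromosomes 1 to 19 and X were used.

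Covered bp per merged region, per window of 1 kb to each side of a gene start and per Igh segment were computed here. Regions and windows covered over at least 100 bp on average were tested with limma 3.58.1 (R 4.3.3; moderated two-sided test on log2(covered bp + 100), Benjamini-Hochberg over all tested). Equal-length lists kept the peaks of highest −log10 q; 21.0% to 39.8% of peaks shared the lowest q of their list, and such ties were broken at random with seed 11. The limma step was tested on simulated data. Members, gene lists, segments and the naming rule (up to 12 and 8 protein coding starts and 6 and 4 distal regions by gap between groups in all 3 list settings, every Igh segment and every additional or missing Igh region, with 2 to 4 members per gene list) were chosen with earlier results of these data known. Spi1 and Nelfe had no annotated start. Settings tried were list length, thresholds, normalization, added bp, filter, window, margin, segment ends, replicate block and leaving out each library. Splitting the fits by region class and list under each scaling was chosen after seeing the data. RAD21 Ig2b libraries and inputs were not used here.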

Additional observations from a re-analysis of the deposited data

How the results depend on the processing

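Depth was unknown, peak calls hold no read density, and 2 libraries per group cannot give an exact p under 0.3333. Calls by limma (0 of regions and of starts) stayed at 0 except with a fixed −log10 q threshold. With at least 3, 961 regions and 376 starts were called. With at least 2, added after seeing the data, 59 starts (58 of them higher) and 0 regions were called. Block lists covered more than control lists at both thresholds (17.91 and 14.56 Mb, against 12.84 and 13.46 Mb, at 2). Of 469 values of single named starts and regions, 463 kept their direction and side of the threshold, 4 passed it (Adssl1 and Osm at −log10 q of at least 3, Prr11 and Acvr1c at 2), and 2 reversed: Orai2-ps (log2 -0.32 at 3) and the Atg7 region (1.42 at 2).

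Regions at unadjusted p under 0.05 numbered 1547 higher and 216 lower at −log10 q of at least 3, 436 lower at 2, 5845 higher and 2814 lower without a filter, and 2007 lower after quantile normalization. Starts numbered 28 lower at 3, 40 lower at 2, 254 lower without a filter, and 498 higher and 378 lower after quantile normalization. The cause of these shifts was not tested.

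Counts without overlap between groups moved with the lists. With equal numbers of peaks 4054 distal regions were lower and 2183 regions missing. With equal covered length 3349 regions were additional. At −log10 q of at least 3, 195 promoter regions were lower, 1743 distal regions higher and 515 lower, 1250 regions additional and 269 missing. At 2 these were 315, 4294, 1925, 2565 and 741. With a 1.5-fold margin 1166 promoter regions were higher and 334 lower, and 6612 distal regions higher.

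With the replicate block limma again called 0 regions and 0 starts (879 starts higher and 141 lower at unadjusted p under 0.05); with lists of equal covered length added to the block, it called 0 of each again. Over regions, block 1 correlated with control 1 at 0.641 and block 2 with control 2 at 0.516. Libraries of unlike number in different groups correlated at 0.534 and 0.576, the block libraries with each other at 0.637 and the controls at 0.592. Over starts these values were 0.766 and 0.740, 0.776 and 0.727, 0.779 and 0.769. Block 1 was thus about as close to control 1 as to block 2, and the numbers are not shown to pair libraries.

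In Igh, Cα reversed to -0.166 percentage points with equal-length lists of both kinds and at −log10 q of at least 2, Cδ to -0.829 with ends moved in by 3 kb, Eμ-JH to -7.35 with ends moved out, Cμ-Sμ to 0.470 at 3 and the proximal VH segments to -0.0315 with equal covered length. Leaving out each library in turn, the point differences of the segments whose sign changed ranged from -0.896 to 2.22 (3'CBEs), -0.166 to 1.62 (Cα), -0.304 to 2.26 (Cγ2c), -0.33 to 5.87 (Cγ2b), -10.98 to 13.48 (Eμ-JH) and -0.0232 to 0.142 (proximal VH), while Cγ1 stayed at 3.58 to 4.80 and Cμ-Sμ at -20.39 to -7.07. Starts at unadjusted p under 0.05 numbered 578 to 2027 higher and 135 to 250 lower, and regions 2655 to 4753 and 1095 to 2038. With 1 library against 2, fewer values overlap by construction: 6323 to 10591 promoter regions were higher and 1439 to 4962 lower, 13348 to 77757 distal regions higher and 7958 to 53964 lower, 8630 to 73963 regions additional and 5241 to 49443 missing.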
